A study of Mus musculus with 5 samples.

Results

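Myokines are the signals that skeletal muscle makes and secretes, and the 10 genes described here encode such signals and the receptor, inhibitor and binding protein that act on them. They are Mstn, Gdf11, Fst and Acvr2b of the myostatin pathway, Igf1, Igf2 and Igfbp5 of the insulin-like growth factor (IGF) pathway, and the myokines Fndc5, Metrnl and Il15. They were taken by gene name, from among 17015 genes with a value in RNA-seq of tibialis anterior (TA), a fast-twitch muscle of the lower leg. Whole TA muscle came from male mice 8 weeks of age that had not been trained. Of the 5 libraries, 3 are labelled Ctrl, the WT control of littermates without Cre, and 2 are labelled Nrip1KO, for skmNrip1-/-, and are called the knockout-labelled libraries here. In skmNrip1-/- mice a myogenin-Cre driver, active in the muscle lineage, deletes a floxed exon of Nrip1, and the other cell types of the muscle keep the gene. The floxed mice were C57BL/6J and the Cre mice they were bred with C57BL/6JN, so both substrains entered the cross. Nrip1 encodes RIP140, a nuclear receptor coregulator, and the comparison asks how its loss in muscle changes the expression of these signals.

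Myostatin, the product of Mstn, is a TGF-β family ligand that muscle fibers secrete and that limits their own growth. It binds the type II receptors ACVR2B and ACVR2A, which recruit the type I receptors ACVR1B or TGFBR1, and the signal passes to SMAD2 and SMAD3. Follistatin, the product of Fst, binds and neutralizes myostatin and the activins. IGF1 and IGF2 signal growth through IGF1R, and the IGF binding proteins hold them in the tissue. FNDC5 is the membrane protein from which irisin is cleaved, IL15 is a cytokine presented by its receptor IL15RA, and METRNL is a secreted protein.

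Fndc5 was the only one of the 10 genes called, and it was higher in the knockout-labelled libraries. Il15 and Mstn were also higher in both of these libraries than in every WT control library, and Igf2 was lower in both, but none of these 3 genes was called. The other 6 genes had groups that overlapped.

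Levels are given in FPKM (fragments per kilobase of transcript), which corrects for transcript length and so allows genes to be compared. The sources used here do not name the scale between libraries. The median ratio over genes of a library to the geometric mean of all libraries was the same in every library. The number of fragments per library is unknown, and no counting error can be given. Changes are given as log2 fold changes from limma on log2(FPKM + 0.1), a scale that understates the change of weakly expressed genes. A gene was called at a Benjamini-Hochberg adjusted p of 0.05 or less, over the 12148 genes whose mean reached 0.5 FPKM, together with a fold change of at least 1.2. All 10 genes reached that minimum. The labels do not say that the libraries of a group came from separate mice, so p-values measure the spread between these libraries, which may be technical. Fewer knockout-labelled libraries were analysed here than the mice per group that the legend of the study names. For a single gene, an exact permutation test of 2 against 3 libraries has 10 splits and cannot give a p below 0.1.

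The sum of FPKM ranged from 969144 to 1288038 between libraries. Genes encoded in mtDNA took 45.4% to 50.7% of it in WT control TA and 58.6% to 60.9% in the knockout-labelled libraries. Myh4 of fast fibers was abundant throughout, between 6416 and 8478 FPKM, and Myh7 of slow fibers was between 0.449 and 1.72 FPKM. WT control replicate 3 stood apart in fiber markers, with 1102 FPKM of Myh2 against 223 to 406 in the other libraries, and values without it are given below. Nrip1, the targeted gene, was at 4.64, 7.69 and 6.55 FPKM in control replicates 1 to 3 and at 25.3 and 22.5 FPKM in knockout-labelled replicates 1 and 2. It was called higher (log2 fold change 1.94, adjusted p = 0.0261 from limma). The call was lost without WT control replicate 3 (adjusted p = 0.114 from limma), and also without either of the knockout-labelled libraries. When each library was left out in turn, the log2 fold change of Nrip1 was 1.74 to 2.09. The higher level of Nrip1 goes against the label, although a value per gene cannot separate the deleted exon from the rest of Nrip1. By the study's methods, that exon holds both the start and the stop codon. The study also measured Nrip1 expression and RIP140 protein in gastrocnemius of skmNrip1-/- mice, and describes these mice as RIP140-deficient. All directions below rest on the labels.

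In WT control TA, Igfbp5 had the highest level of the 10 genes, at 49.2 ± 11.1 FPKM (SD, n = 3). It was followed by Fndc5 at 30.3 ± 2.15 FPKM (SD, n = 3) and Mstn at 13.0 ± 1.24 FPKM (SD, n = 3), and the libraries of these 3 genes did not overlap each other. Igf2 at 4.90 ± 1.05 FPKM and Il15 at 4.81 ± 1.29 FPKM (SD, n = 3 each) could not be told apart. The libraries of Igf1, Acvr2b, Metrnl and Gdf11, with means from 1.73 to 2.77 FPKM, overlapped from each gene to the next in that order. Fst was the lowest, at 0.697 ± 0.0586 FPKM (SD, n = 3), a level that 93.5% of the genes tested exceeded on the mean of all libraries.

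**Figure D1:**
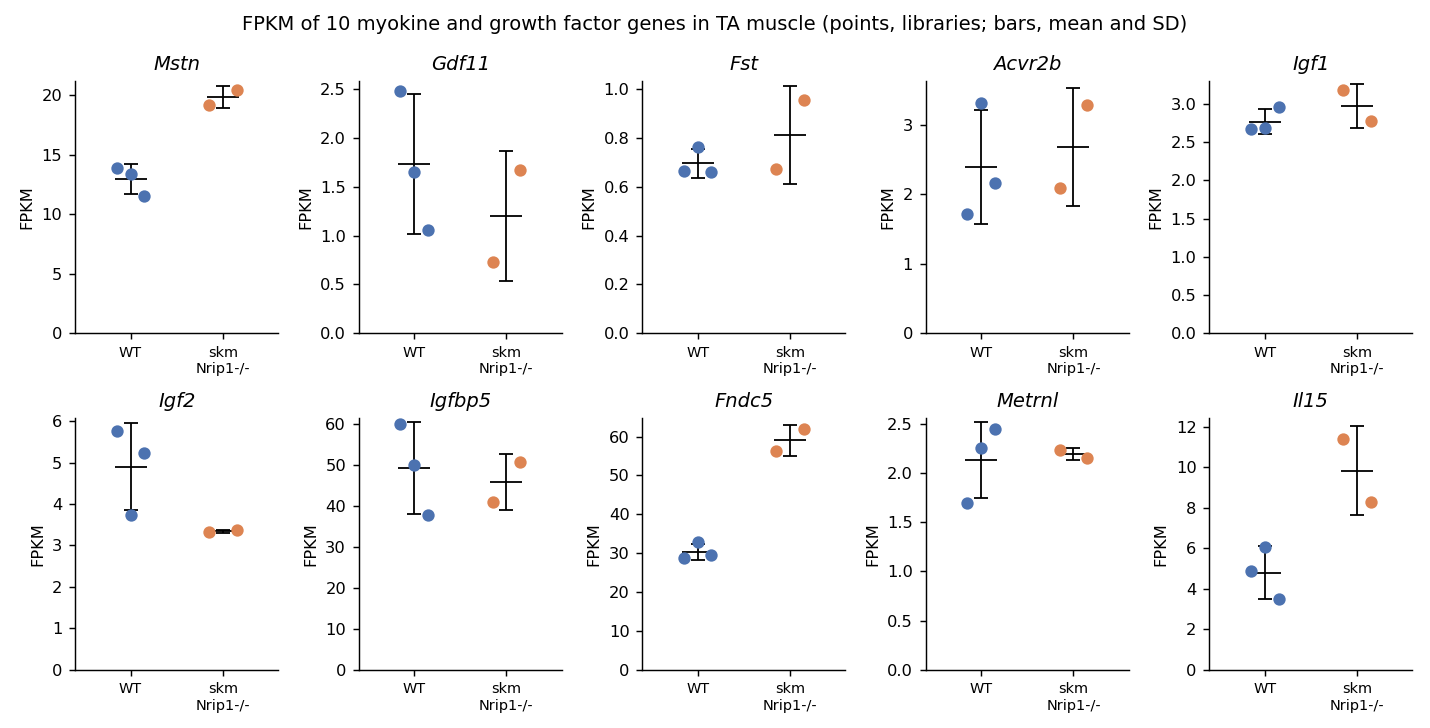
FPKM of each of the 10 genes in the 3 WT control libraries (blue points) and the 2 knockout-labelled libraries (orange points), with bars for the mean and SD of each group, on linear axes from 0 that differ between panels. The points of the groups are apart for Fndc5, Il15 and Mstn (higher) and Igf2 (lower), and overlap in the other 6 panels.

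Fndc5 (ENSMUSG00000001334) lies on the plus strand of chromosome 4, at 129136999 to 129144593 on GRCm38. Its level was 28.8, 32.8 and 29.4 FPKM in control replicates 1 to 3 and 56.2 and 61.9 FPKM in knockout-labelled replicates 1 and 2. Both knockout-labelled libraries were thus far above a tight WT control group. The group means were 30.3 ± 2.15 FPKM (SD, n = 3) and 59.1 ± 4.03 FPKM (SD, n = 2), a ratio of 1.95. This gave a log2 fold change of 0.96 (standard error 0.11, 95% interval 0.70 to 1.23, adjusted p = 0.0295 from limma). Fndc5 had the 30th smallest p of the 12148 genes tested, of which 0.453% were called, 0.37% higher and 0.0823% lower. In whole muscle, more of a cell type and more RNA per cell cannot be told apart.

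The call of Fndc5 depended on most single libraries, but its size did not. Its log2 fold change stayed between 0.89 and 1.03 when each library was left out in turn. The adjusted p from limma was 0.0681 without WT control replicate 1, 0.151 without WT control replicate 3, and 0.203 and 0.288 without knockout-labelled replicates 1 and 2. It was 0.0354 without WT control replicate 2. After rescaling to TPM, which gives every library the same sum, the median of all genes moved to -0.29. Fndc5 was then at 0.66, or 0.95 above that median (adjusted p = 0.0663 from limma).

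Il15 (ENSMUSG00000031712, minus strand of chromosome 8, 82331632 to 82403222 on GRCm38) had the largest change of the 10 genes. Its level was 4.86, 6.07 and 3.49 FPKM in control replicates 1 to 3 and 11.4 and 8.28 FPKM in knockout-labelled replicates 1 and 2. Both of the latter were above every WT control library, but both groups were spread widely. The means were 4.81 ± 1.29 FPKM (SD, n = 3) and 9.83 ± 2.20 FPKM (SD, n = 2), a ratio of 2.05. Its log2 fold change of 1.03 had a standard error of 0.25 and a 95% interval of 0.43 to 1.64, and Il15 was not called (adjusted p = 0.203 from limma). Without WT control replicate 3 the log2 fold change of Il15 was 0.83, and under 14 alternatives it ran from 0.74 to 1.26.

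Il15ra, which encodes the receptor chain that presents IL15, had groups that overlapped. It was at 14.5, 17.2 and 14.8 FPKM in WT control TA and at 17.7 and 15.7 FPKM in the knockout-labelled libraries (log2 fold change 0.11, standard error 0.13). Macrophages are another source of IL15. The summed level of 9 macrophage markers was 21.6 to 41.5 FPKM in WT control TA and 26.05 to 34.3 FPKM in the knockout-labelled libraries. The groups of this sum overlapped, and no marker of the list was at 0 in any library.

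The 3 genes whose pattern over the 5 libraries was nearest to that of Il15 were Aldh9a1, Nme1 and Hist1h3i, an aldehyde dehydrogenase, a nucleoside diphosphate kinase and a histone gene. Their root mean square distances to Il15 were 0.137, 0.145 and 0.150 on the log2 scale, each gene centered on its own mean. Their log2 fold changes were 0.89, 0.85 and 1.11, and none of the 3 was called. Because these genes were picked by their nearness to Il15 in the same libraries, changes of similar size follow from the choice.

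Metrnl (ENSMUSG00000039208, plus strand of chromosome 11, 121701544 to 121716306) had the smallest difference of the 10 genes. It was at 1.70, 2.25 and 2.44 FPKM in control replicates 1 to 3 and both knockout-labelled libraries, at 2.23 and 2.15 FPKM, lay within that range. The difference was 0.05 on the log2 scale, with a 95% interval from -0.40 to 0.51. Metrn, the homolog of Metrnl, was at 21.4, 16.0 and 13.9 FPKM in WT control TA and 11.9 FPKM in both knockout-labelled libraries. These groups did not overlap, and Metrn was not called (log2 fold change -0.50, adjusted p = 0.364 from limma).

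Mstn (ENSMUSG00000026100) lies on the plus strand of chromosome 1, at 53061640 to 53068079. Its level was 13.9, 13.4 and 11.6 FPKM in control replicates 1 to 3 and 19.2 and 20.5 FPKM in knockout-labelled replicates 1 and 2. Both groups were tight, and they did not overlap. The means were 13.0 ± 1.24 FPKM (SD, n = 3) and 19.8 ± 0.924 FPKM (SD, n = 2), a ratio of 1.53. On the log2 scale Mstn differed by 0.61 (standard error 0.12, 95% interval 0.32 to 0.90), and Mstn was not called (adjusted p = 0.129 from limma). Without WT control replicate 3, Mstn differed by 0.53. Under 14 alternatives its log2 fold change ran from 0.32 to 0.67, with adjusted p-values from 0.108 to 0.652.

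The sequences just before the transcription starts of Fndc5 and Mstn are shown because these genes had the smallest p-values of the 10, and their base compositions lie on opposite sides of the median promoter. The 250 bases before the RefSeq start, on the plus strand of GRCm38.p6, are at chr4:129136749-129136998 for Fndc5 and at chr1:53061390-53061639 for Mstn. Capitals mark the GC box GGGCGG (on either strand, where matches may overlap) in Fndc5, and the TATA box TATAAA and the E-box CANNTG in Mstn.
Fndc5: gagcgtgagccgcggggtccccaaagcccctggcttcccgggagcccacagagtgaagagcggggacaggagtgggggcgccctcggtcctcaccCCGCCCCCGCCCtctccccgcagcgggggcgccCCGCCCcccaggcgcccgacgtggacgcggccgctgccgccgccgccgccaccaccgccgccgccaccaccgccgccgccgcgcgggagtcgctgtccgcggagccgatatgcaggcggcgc
Mstn: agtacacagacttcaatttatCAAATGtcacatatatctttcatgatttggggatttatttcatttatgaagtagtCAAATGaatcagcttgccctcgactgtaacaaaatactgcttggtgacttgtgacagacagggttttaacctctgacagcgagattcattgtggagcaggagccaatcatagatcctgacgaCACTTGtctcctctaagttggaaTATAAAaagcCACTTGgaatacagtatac

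The Fndc5 window was 80.8% G and C with 38 CpG dinucleotides, and the Mstn window was 38.4% G and C with 3, beside medians of 52.4% and 6 over the 32851 promoters of the RefSeq table. The Fndc5 window held 3 GC boxes and no TATA box or E-box. The Mstn window held 4 E-boxes, the sequence that myogenic regulatory factors bind, and a TATA box with its first base at -29 from the start. Of all promoters in the table, 32.7% held a GC box, 12.4% a TATA box and 66.2% an E-box in windows of this length. The nuclear receptor motif AGGTCA was in neither window and in 14.0% of all promoters, which says nothing of binding elsewhere. The table matched 8 of the 10 genes, and the exceptions were Il15 and Fst.

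Gdf11 (ENSMUSG00000025352, minus strand of chromosome 10, 128882295 to 128891718), the close homolog of Mstn, had groups that overlapped. It was at 2.49, 1.65 and 1.06 FPKM in control replicates 1 to 3 and at 0.727 and 1.67 FPKM in knockout-labelled replicates 1 and 2. Both groups were spread over more than their difference. Its log2 fold change was -0.52 (standard error 0.43), with a 95% interval from -1.56 to 0.52. Without knockout-labelled replicate 1 the log2 fold change was 0.03, and without replicate 2 it was -1.07.

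Fst (ENSMUSG00000021765, minus strand of chromosome 13, 114452290 to 114458951) was at 0.665, 0.764 and 0.660 FPKM in control replicates 1 to 3 and at 0.671 and 0.956 FPKM in knockout-labelled replicates 1 and 2. Only replicate 2 of the latter lay above the WT control range. This difference was 0.18 on the log2 scale (standard error 0.25, 95% interval -0.41 to 0.78). Fstl3, a follistatin-like inhibitor, was as low, at 0.472 to 0.845 FPKM over all libraries. Wfikkn2, a myostatin-binding protein, was at 4.54 to 4.58 FPKM in WT control TA and at 4.66 and 4.06 FPKM in the knockout-labelled libraries, while its homolog Wfikkn1 stayed under 0.1 FPKM and was not tested.

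Acvr2b (ENSMUSG00000061393, plus strand of chromosome 9, 119402118 to 119434995) was at 1.72, 3.31 and 2.16 FPKM in control replicates 1 to 3 and at 2.09 and 3.29 FPKM in knockout-labelled replicates 1 and 2. Both of the latter were inside the WT control range, and the log2 fold change was 0.17 (standard error 0.31, 95% interval -0.57 to 0.91). Acvr2a, the other type II receptor, was at 3.41 to 3.88 FPKM in WT control TA and at 3.51 and 4.16 FPKM in the knockout-labelled libraries. The type I receptors had log2 fold changes of -0.09 for Acvr1b (standard error 0.12) and -0.19 for Tgfbr1 (standard error 0.16), and their groups overlapped.

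Of 40 genes listed for the myostatin and activin pathway, 27 were tested and none was called in either direction with limma. At an unadjusted p of 0.05 or less, 1 gene was higher (Mstn) and 1 lower (Nog, a BMP antagonist), beside 11.9% of all genes tested in either direction. The median log2 fold change of the 27 genes was -0.09, beside -0.00 for all genes tested, with 8 genes above 0 and 19 below. Both knockout-labelled libraries were above every WT control library in 1 of these genes and below in 5, beside 15.8% and 14.4% of all genes tested. Nog was at 3.20, 2.80 and 2.74 FPKM in WT control TA and at 2.22 and 2.20 FPKM in the knockout-labelled libraries (log2 fold change -0.38, adjusted p = 0.362 from limma). Apart from the 4 genes of the pathway already described, the next lowest value was that of Inha, the inhibin α subunit, at -0.33. The highest were those of Skil, a SMAD corepressor, at 0.28, and Dcn, a proteoglycan of connective tissue, at 0.18. The activin genes Inhba and Inhbb were under the minimum, between 0.144 and 0.386 FPKM in all libraries.

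Igf2 (ENSMUSG00000048583, minus strand of chromosome 7, 142650766 to 142666816) was the one gene of the 10 that was lower in both knockout-labelled libraries. Its level was 5.76, 3.73 and 5.22 FPKM in control replicates 1 to 3 and 3.32 and 3.37 FPKM in knockout-labelled replicates 1 and 2. The latter lay close together below a spread-out WT control group, whose replicate 2 was nearest to them. The means were 4.90 ± 1.05 FPKM (SD, n = 3) and 3.34 ± 0.0368 FPKM (SD, n = 2), a ratio of 0.682. Its log2 fold change was -0.52 (standard error 0.20, 95% interval -0.99 to -0.05), and Igf2 was not called (adjusted p = 0.378 from limma). Under the 14 alternatives its log2 fold change ran from -0.81 after rescaling to TPM to -0.39 without WT control replicate 1. It was -0.46 without WT control replicate 3.

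In GENCODE M21, Igf2 shares 62.8% of its exon bases with Gm49394, a gene on the same strand, so fragments could be split between them. Gm49394 was listed at 0 in all libraries but WT control replicate 3, where it was at 0.0999 FPKM. Igf2 is also made by cells other than muscle fibers. The summed level of 9 fibroblast markers was 254 to 350 FPKM in WT control TA and 284 to 399 FPKM in the knockout-labelled libraries, and 6 of the 9 had log2 fold changes above 0. Of 8 endothelial markers 6 were below 0, and the sum of the 8 was 140 to 158 FPKM in WT control TA and 133 to 134 FPKM in the knockout-labelled libraries. Taken singly, each of the 8 endothelial markers had groups that overlapped. In both lists no gene was called, and none was at 0 in any library. The part of endothelial content in the lower Igf2 was not tested.

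Igf1 (ENSMUSG00000020053, plus strand of chromosome 10, 87858265 to 87937042) was at 2.67, 2.69 and 2.96 FPKM in control replicates 1 to 3 and at 3.19 and 2.78 FPKM in knockout-labelled replicates 1 and 2. The groups overlapped, and the log2 fold change was 0.10 (standard error 0.14, 95% interval -0.23 to 0.43). Its receptor gene Igf1r overlapped between groups, at 1.56, 1.55 and 1.63 FPKM in control TA and 1.58 and 1.68 FPKM in the knockout-labelled libraries. Igf2r encodes the receptor that clears IGF2, and its log2 fold change was -0.09 (standard error 0.14).

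Igfbp5 (ENSMUSG00000026185, minus strand of chromosome 1, 72857932 to 72874884) was at 59.9, 49.95 and 37.7 FPKM in control replicates 1 to 3 and at 40.9 and 50.6 FPKM in knockout-labelled replicates 1 and 2. Both of the latter lay within the WT control range. The difference on the log2 scale was -0.09 (standard error 0.21, 95% interval -0.58 to 0.41). The groups of 3 more binding protein genes overlapped too, with log2 fold changes of 0.03 for Igfbp3, -0.12 for Igfbp4 and -0.07 for Igfbp6, and standard errors from 0.12 to 0.14.

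Of 28 genes listed for the IGF pathway, 20 were tested and none was called in either direction with limma. Igf2 was the one gene of the 20 with an unadjusted p of 0.05 or less, beside 11.9% of all genes tested. The median log2 fold change was -0.02, with 10 genes above 0 and 10 below. In 1 gene both knockout-labelled libraries were above every WT control library and in 4 both were below, beside 15.8% and 14.4% of all genes tested. Insr, the insulin receptor, had the highest value, with 7.01, 9.63 and 8.22 FPKM in WT control TA and 10.04 and 10.8 FPKM in the knockout-labelled libraries (log2 fold change 0.34, adjusted p = 0.464 from limma). The receptor substrate Irs1 and the glycoprotein Stc2 were lowest after Igf2, at -0.38 and -0.37. Igfbp1 was at 0.33, but its libraries overlapped, and without knockout-labelled replicate 1 its value was -0.33. The noncoding RNA H19 was not analysed here.

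Of 45 genes listed for other myokines and their receptors, 32 were tested, and Fndc5 was the one gene called. The median log2 fold change was 0.05, with 19 genes above 0 and 13 below. Of the 32 genes, 5 higher and 3 lower reached an unadjusted p of 0.05, beside 6.57% and 5.33% of all genes tested. After Fndc5 and Il15 the highest were Nampt, an enzyme of NAD synthesis that is also found outside cells, and Lifr, the receptor of leukemia inhibitory factor, both at 0.61. Nampt was at 41.5, 52.7 and 42.8 FPKM in WT control TA and at 72.1 and 66.7 FPKM in the knockout-labelled libraries (adjusted p = 0.169 from limma). The lowest were Il2rg, the common cytokine receptor chain that also serves IL15, at -0.79 (adjusted p = 0.321 from limma), and Metrn.

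**Figure D2:**
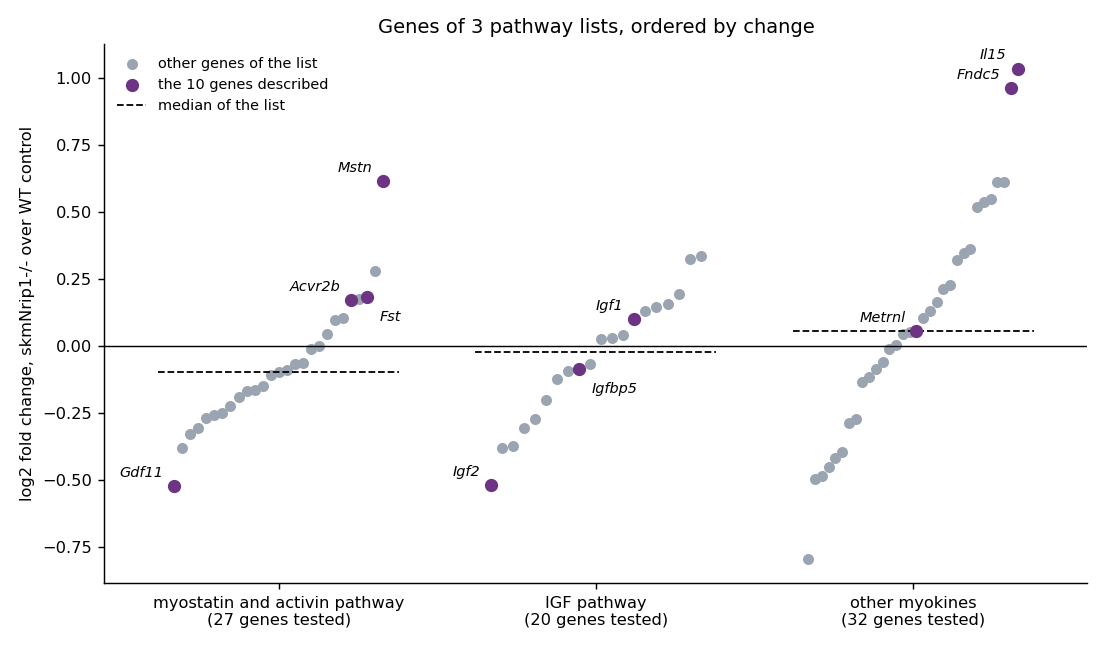
Log2 fold change, knockout-labelled libraries over WT control, of each tested gene of 3 lists (horizontal groups), ordered by size within each list, with the 10 genes in purple, the others in grey and a dashed line at each median. Mstn at 0.61 and Fndc5 and Il15 at 0.96 and 1.03 are at the top of their lists, Gdf11 and Igf2 are at the bottom of theirs, and the medians lie between -0.09 and 0.05.

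Across the 10 genes, 1 was called, and 4 (Fndc5, Mstn, Il15 and Igf2) had an unadjusted p of 0.05 or less, a level that 11.9% of all genes tested reached (6.57% higher and 5.33% lower). In 3 of the 10 genes both knockout-labelled libraries were above every WT control library, and in 1 both were below, beside 15.8% and 14.4%, or 30.2% in either direction, of all genes tested. These 4 genes did not overlap after rescaling to TPM either. For the other 6 genes the 95% intervals reached from below 0 to above it, and each allowed a change of more than 1.2-fold, so these values do not show that the genes were unchanged.

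**Figure D3:**
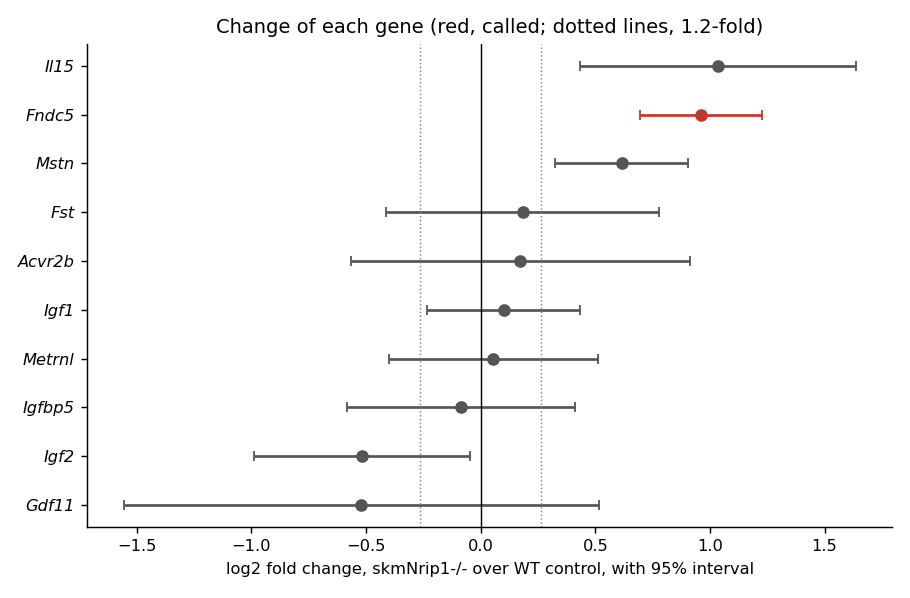
Log2 fold change of each of the 10 genes with its 95% interval from limma, ordered by size, with Fndc5, the called gene, in red and dotted lines at 1.2-fold. The intervals of Il15, Fndc5 and Mstn lie above 0, that of Igf2 lies below 0, and the other 6 cross it, the widest being that of Gdf11 from -1.56 to 0.52.

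Some markers of slow fibers and of other cell types moved with the labels and are given beside the 4 genes whose groups were apart. The slow fiber myosin light chain gene Myl2 was at 2.03, 1.85 and 9.68 FPKM in control replicates 1 to 3 and at 42.1 and 33.6 FPKM in knockout-labelled replicates 1 and 2. Myl3 was at 89.6, 124 and 285 FPKM and at 54.1 and 71.3 FPKM, so these genes of the same list lay on opposite sides of control. The sum of the 8 slow fiber markers was 138 to 349 FPKM in WT control TA and 151 FPKM in both knockout-labelled libraries. The summed level of 5 erythrocyte genes was 511 to 764 FPKM in WT control TA and 827 to 996 FPKM in the knockout-labelled libraries. That of 6 satellite cell markers was 11.8 to 13.5 and 14.8 to 16.8 FPKM, of which Sdc4 gave 6.80 to 6.93 and 8.15 to 9.68 FPKM, while Pax7, which defines these cells, was at 0.383 to 0.386 and 0.237 to 0.314 FPKM. That of 7 adipocyte markers was 1253 to 1855 and 713 to 950 FPKM, nearly all of it Car3, while Adipoq was at 0.627 to 1.35 and 1.03 to 1.16 FPKM. The sum of 9 myofiber markers was 73425 to 92424 and 70736 to 73318 FPKM, with 2 log2 fold changes above 0 and 7 below. Of this list, Mb was higher in both knockout-labelled libraries, at 4329 to 5157 and 7664 to 7764 FPKM, and the groups of Myh4 overlapped. Nnt (ENSMUSG00000025453), a mitochondrial gene that carries a deletion in C57BL/6J, was at 11.8, 8.16 and 3.80 FPKM in control replicates 1 to 3 and at 43.5 and 42.1 FPKM in knockout-labelled replicates 1 and 2 (adjusted p = 0.0953 from limma). It was looked up after the other values were seen. None of these genes was called, and their part in the results for Fndc5, Il15, Mstn and Igf2 was not tested.

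**Figure D4:**
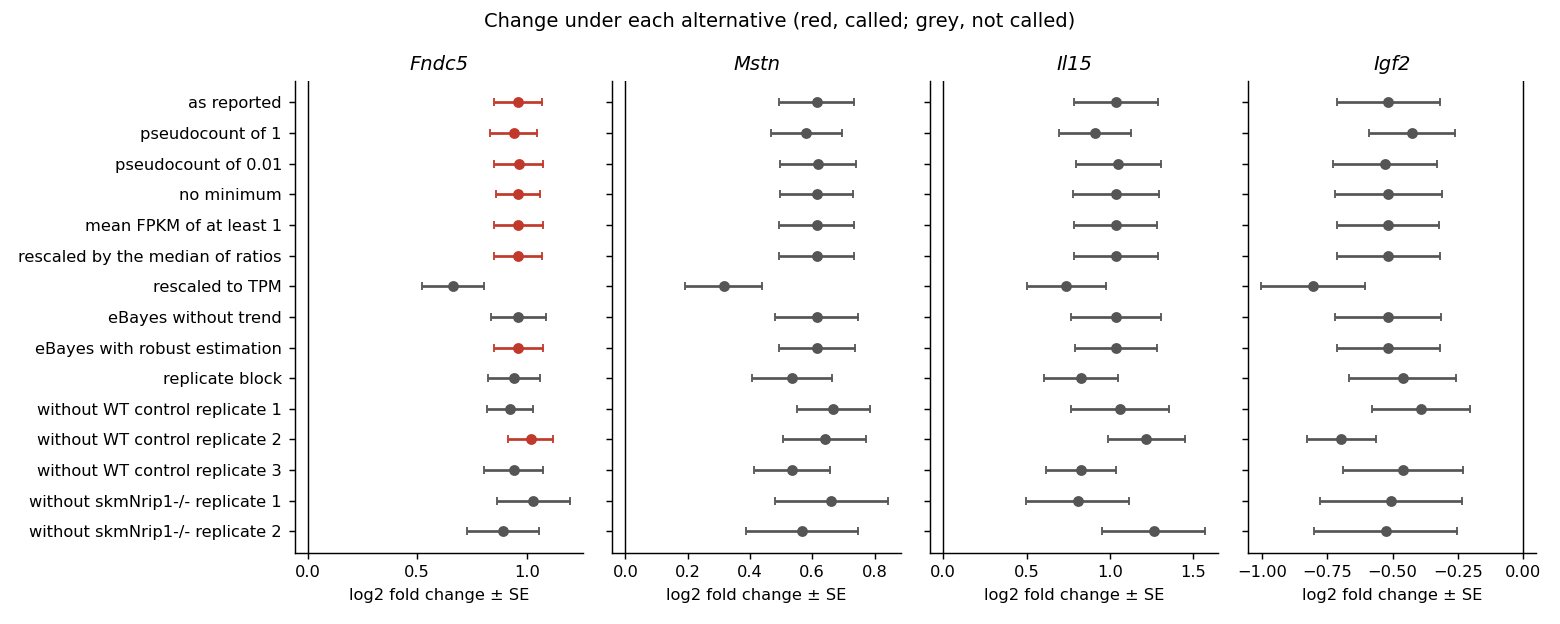
Log2 fold change with its standard error (horizontal axes, which differ between panels) of Fndc5, Mstn, Il15 and Igf2 as reported and under 14 alternatives (vertical axis), in red where called. Only rescaling to TPM could have reversed a direction, because the groups of these genes do not overlap, and no direction is reversed. Fndc5 is called as reported and in 7 of the 14 alternatives. Of the 14, rescaling by the median of ratios all but repeats the reported fit. The replicate block repeats the log2 fold changes found without WT control replicate 3.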

How the data were processed

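TA muscle RNA was sequenced in 3 libraries labelled Ctrl (WT control) and 2 labelled Nrip1KO (skmNrip1-/-). Per the labels and the study's methods, the authors quantified reads with Salmon 1.10.2 on mm10 and summarized transcripts to genes with tximport. They deposited FPKM per gene and library, and the sources used here do not state how the FPKM were scaled. The median ratio over genes of a library to the geometric mean of all libraries was 1.0017 in every library. The values were thus already on a median-of-ratios scale. The deposited log2 fold changes and adjusted p-values from the authors' DESeq2 1.44.0 were not used.

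Tests used log2(FPKM + 0.1) and the linear models of limma 3.58.1 (R 4.3.3), moderated by eBayes with a mean trend, in a single fit of all 5 libraries without covariates. The FPKM minimum was 0.5 on the mean, and the test was two-sided. The fit was also run on simulated data with independent normal values for each gene. That setting lacks the differences between libraries seen here, so it does not bear on the calls. Positions and exon overlaps are from GENCODE M21, which holds 16996 of the 17015 gene IDs, and promoters are from RefSeq (GRCm38.p6). Python 3.11.15 with pandas 2.3.3 and matplotlib 3.10.9 served for tables and figures.

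The 10 genes and the pathway and marker lists were chosen with earlier results of these data known. The rule for other named genes was to take from each list every called gene and the 2 highest and 2 lowest log2 fold changes outside the 10 genes, the direct partners of the 10 genes, and the 3 genes nearest in pattern to the gene with the largest change. The alternatives were another pseudocount, minimum, scaling, eBayes setting, threshold or replicate block, and each library left out. The labels give replicate numbers but name no pairs, and the main fit did not pair the libraries.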

Additional observations from a re-analysis of the deposited data

How the results depend on the processing

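The groups of Fndc5, Mstn, Il15 and Igf2 did not overlap, so most alternatives could not reverse their direction. Of the 14 run for each, only rescaling to TPM could have done so. It gave 0.66 for Fndc5, 0.32 for Mstn, 0.74 for Il15 and -0.81 for Igf2. The call of Fndc5 was lost after rescaling to TPM (0.66), without the eBayes trend (0.96) and with the replicate block (0.94), and when libraries were left out its log2 fold change was 0.89 to 1.03. Each of these settings left 0 of the 10 genes, and 0 of the other myokines, called. Leaving out each library in turn gave 0 to 1 for both counts. Over all genes, 45 were called higher and 10 lower. These counts were 30 and 63 after rescaling to TPM, 22 and 3 without the trend, 18 and 4 with the replicate block, 81 and 23 with the threshold moved to 0.1, and 6 to 55 and 3 to 16 when libraries were left out. The replicate block gives WT control replicate 3, whose number has no partner, no weight in the comparison. The call of Nrip1 was also lost without the trend and with the replicate block. Deviations from the group mean of same-numbered libraries correlated across genes at 0.0647 and 0.0952. The deviations of the knockout-labelled libraries mirror each other, so these values cannot decide whether the numbers pair the samples. The labels name no pairs, and the main fit used none. When libraries were left out, a lone library was assumed to vary like the others.

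Several values near 0 changed sign. Rescaling to TPM moved the median of all genes to -0.29, and gave -0.0802 for Fst, -0.11 for Acvr2b, -0.19 for Igf1, -0.23 for Metrnl, -0.0071 for Skil, -0.12 for Dcn, -0.24 for Acvr2a, -0.24 for Igf1r, -0.26 for Igfbp3 and -0.19 for Il15ra, all above that median. With the replicate block, Acvr2a was at -0.0114, Igfbp3 at -0.034 and Igfbp6 at 0.0222. With libraries left out, the ranges were -1.07 to 0.0308 for Gdf11, -0.0439 to 0.41 for Fst, -0.14 to 0.49 for Acvr2b, -0.26 to 0.0694 for Igfbp5, -0.0935 to 0.16 for Metrnl and -0.33 to 0.98 for Igfbp1. They were -0.0723 to 0.16 for Acvr2a, -0.39 to 0.0157 for Tgfbr1, -0.33 to 0.0281 for Fstl3, -0.16 to 0.0294 for Wfikkn2, -0.0021 to 0.0873 for Igf1r, -0.034 to 0.0671 for Igfbp3 and -0.17 to 0.0222 for Igfbp6. The cause of these changes was not tested. Absolute depth is unknown, so what it limits at low levels, such as that of Fst, cannot be stated.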

Other observations

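Among the other myokines, some genes had groups that did not overlap and are named here after their values were seen. Ostn, which encodes musclin, was at 3.51, 2.57 and 2.05 FPKM in control replicates 1 to 3 and at 4.26 and 3.61 FPKM in knockout-labelled replicates 1 and 2 (log2 fold change 0.55, standard error 0.23). Vegfa, the angiogenic growth factor, was at 180.3, 208 and 158 FPKM in WT control TA and at 221 and 239.8 FPKM in the knockout-labelled libraries (log2 fold change 0.35, standard error 0.14). Dkk3, a secreted glycoprotein, differed by 0.54 on the log2 scale (standard error 0.23), and Itgb5, an integrin subunit proposed as part of an irisin receptor, by 0.21 (standard error 0.09). Fgf2 was lower, at 1.63, 1.72 and 1.603 FPKM in WT control TA and 1.22 and 1.24 FPKM in the knockout-labelled libraries (log2 fold change -0.39, standard error 0.16). None of these 5 genes was called with limma, with adjusted p-values from 0.404 for Fgf2 to 0.442 for Itgb5. Of the tested genes of this list, 8 were above and 3 below every WT control library in both knockout-labelled libraries, beside 15.8% and 14.4% of all genes tested.

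The interleukins Il6 and Il7 were at 0.0199 to 0.234 and 0.0105 to 0.074 FPKM over all libraries, and Bdnf, another exercise-related factor, was at 0.215 to 0.642 FPKM. These genes did not reach the minimum and were not tested.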
